A study of Arabidopsis thaliana with 12 samples.

Results

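The nuclear genes for the light-harvesting antenna proteins and for the subunits of photosystems I and II were followed in seedlings of Arabidopsis thaliana. They were taken by gene identifier and comprised 42 of the 32833 genes in the count table: 15 LHCB genes (antenna of photosystem II), 6 LHCA genes (antenna of photosystem I), 12 PSA genes (photosystem I subunits) and 9 PSB genes (photosystem II subunits). The study set whole seedlings of the line bbx28-5 against the accession Col-0, each in simulated shade or in white light, with 3 biological replicates in each of the 4 groups: bbx28-5 in shade, bbx28-5 in white light, Col-0 in shade and Col-0 in white light. All seedlings were grown at 22 °C in a photoperiod of 10 h, with nights of 14 h, for 2 days before a treatment of 4 h. Shade came from the same lamps behind a green filter and gave a photosynthetically active radiation of 20 µmol per square metre per second, against 90 in white light. Its red to far-red ratio was 0.145, against 1.1, and its blue light 1.3 µmol per square metre per second, against 8.1. BBX28 encodes a B-box protein, a class of transcription regulators in light signalling. Both genotypes have the Columbia background, and what the bbx28-5 allele changes in the gene is not described in the labels.

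Light-harvesting proteins bind chlorophyll and pass excitation energy to the photosystem cores, where charge separation drives electrons from water to ferredoxin. In Arabidopsis the core reaction-centre proteins are mostly encoded in the chloroplast, whereas the antenna proteins and the peripheral subunits are encoded in the nucleus, often by several gene copies. These nuclear genes are among the most abundantly transcribed genes of green seedlings and are known to respond to light through phytochromes and cryptochromes.

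The libraries held 10.61 to 14.3 M gene counts. A floor of 3 counts equalled 0.2 to 0.346 CPM (counts per M counts, after TMM scaling), and all tested members lay far above it. Replicate 2 of bbx28-5 in shade stood apart. In it, 2151 genes lay 2-fold or more from the rest of its group, against 129 to 742 genes in the other 11 libraries. The members stood apart with it: 38 of the 41 tested members were highest in that library among the 3 of its group, by a median log2 difference of 0.64, with PSAE1 at the upper end (1.41) and LHCB1.4 at the lower end (-0.35). The median member differed by 0.73 log2 units between the highest and lowest library of bbx28-5 in shade, against 0.1 in bbx28-5 in white light, 0.2 in Col-0 in shade and 0.08 in Col-0 in white light. Called values of single members printed below that moved by more than 1.5 times without replicate 2 are given with and without it. Not every called genotype difference in shade is printed. Reads of BBX28 itself reached 144 to 210 CPM in bbx28-5 in shade against 104 to 115 CPM in Col-0 in shade, and 99.8 to 108 CPM in bbx28-5 in white light against 64.1 to 74.2 CPM in Col-0 in white light. Since what the allele does to the transcript is not given, these reads do not check the genotype labels. The summed level of 3 shade-response genes (HFR1, PIL1, ATHB2) was 353 to 431 CPM against 33.4 to 37.6 CPM in bbx28-5, and 263 to 276 CPM against 34.7 to 37.9 CPM in Col-0, in shade against white light.

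Members of all 4 classes were detected, with 1 exception. LHCB1.5 (AT2G34420) was at 0 reads in all 12 libraries. In the TAIR10.1 annotation its whole span of 1045 bases is overlapped by a non-coding gene on the opposite strand, AT2G08665, which was also at 0 in all libraries. LHCB1.5 and LHCB1.4 share 91.4% of their coding bases, and LHCB1.1, LHCB1.2 and LHCB1.3 share 95.6 to 96.4% among themselves, so reads of these copies could be split or lost by the counting, and values of single LHCB1 copies are uncertain. In all, 17 of the 42 members overlap another annotated gene, 7 of them by at most 100 bases. PSAE1, PSAG and PSAH1 overlap opposite-strand genes by 436, 479 and 788 bases, and those partner genes held 0, 0 and 1 read in all libraries together. The libraries were made with a stranded kit, but whether the counting used strand is not stated in the labels.

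Levels per kilobase of exon differed more within the antenna classes than within the core classes. In Col-0 in white light, LHCA4 (6490 CPM per kilobase), LHCB1.3 (6440) and LHCB3 (5960) were the highest members. LHCB7 (20.1) and LHCB4.3 (48.2), minor relatives of the photosystem II antenna proteins, were the lowest of the tested members, and LHCA5 (162) and LHCA6 (169) were low as well. Averaged over the 4 groups, levels per kilobase spanned 7.98 log2 units between the lowest and the highest tested LHCB gene, LHCB7 and LHCB1.3. The LHCA genes spanned 6.11 log2 units, the PSA genes 2.58 and the PSB genes 2.59.

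Together the members took 11.1% ± 2.04 of all gene counts in bbx28-5 in shade, 11.9% ± 0.17 in bbx28-5 in white light, 10.2% ± 0.526 in Col-0 in shade and 13.1% ± 0.127 in Col-0 in white light (SD, n = 3 each). The bbx28-5 shade libraries held 10.2, 13.5 and 9.73%, the replicate 2 library being the highest of all 12. By class, LHCB genes took 3.62, 4.83 and 3.32% of the counts in bbx28-5 in shade, against 4.68 to 4.78% in bbx28-5 in white light, and 3.6 to 4.15% in Col-0 in shade, against 5.26 to 5.46% in Col-0 in white light. LHCA genes took 2.71, 3.37 and 2.63% in bbx28-5 in shade, against 2.34 to 2.39% in bbx28-5 in white light, and 2.39 to 2.58% in Col-0 in shade, against 2.58 to 2.61% in Col-0 in white light. The LHCA share was thus above its white-light libraries in each shade library of bbx28-5 and not in Col-0, whereas the LHCB share was lower in each Col-0 shade library than in any white-light library of Col-0. PSA genes took 1.42 to 2.22% in bbx28-5 in shade against 1.99 to 2.11% in white light, and 1.56 to 1.7% in Col-0 in shade against 2.34 to 2.37% in white light. PSB genes took 2.35 to 3.07% in bbx28-5 in shade against 2.65 to 2.76% in white light, and 2.21 to 2.4% in Col-0 in shade against 2.81 to 2.9% in white light. These shares are descriptions and carry no test. In RNA from whole seedlings, fewer cells of a type and less RNA per cell cannot be told apart.

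**Figure D1:**
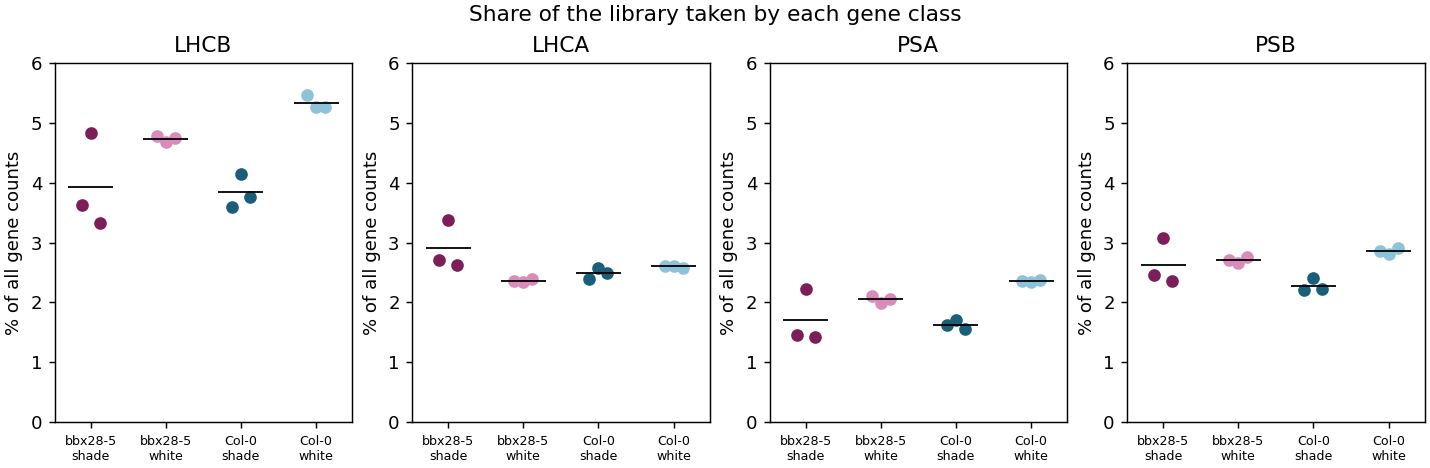
Share of all gene counts taken by the LHCB, LHCA, PSA and PSB genes (vertical axis, percent) in bbx28-5 in shade, bbx28-5 in white light, Col-0 in shade and Col-0 in white light; points are libraries and lines are group means of 3. The LHCA share is 2.63 to 3.37% in the bbx28-5 shade libraries and 2.34 to 2.39% in bbx28-5 in white light, while in Col-0 the LHCB, PSA and PSB shares are lower in shade than in white light.

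The balance between the classes inside each library does not depend on a single scaling factor per library. Scaling that varies with a gene's abundance could move it and was not applied to it. LHCA genes had 69.7 to 79.3 reads per 100 LHCB reads in bbx28-5 in shade, against 49.5 to 50.3 in bbx28-5 in white light, and 62.1 to 66.6 in Col-0 in shade, against 47.8 to 49.5 in Col-0 in white light. Shade libraries of both genotypes were above all white-light libraries, and those of bbx28-5, replicate 2 included, were above those of Col-0. Against the PSA genes, LHCA genes had 152 to 185 reads per 100 in bbx28-5 in shade and 112 to 118 in white light, and 148 to 159 in Col-0 in shade and 109 to 111 in white light. LHCB genes had 142 to 157 reads per 100 PSB reads in bbx28-5 in shade and 172 to 177 in white light, and 163 to 173 in Col-0 in shade and 181 to 191 in white light. PSA genes had 59.5 to 72.1 reads per 100 PSB reads in bbx28-5 in shade and 74.2 to 78.1 in white light, and 70.3 to 73.4 in Col-0 in shade and 81.8 to 83.2 in white light. Within each genotype the ranges of the shade and the white-light libraries did not overlap for any of these 4 ratios, and in each genotype the LHCA genes took the larger part in shade.

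For the tests, 41 members entered an edgeR quasi-likelihood fit of all 19711 genes that passed a filter on low counts, with a mean for each group. A member was called at a Benjamini-Hochberg adjusted p under 0.05. The p-values set a difference against the spread between replicates that the study calls biological. A single estimate of that spread is shared by all 4 groups. Replicate 2 of bbx28-5 in shade therefore also enters the spread used for contrasts that leave out its group. With shade in bbx28-5, 14 members were higher and 12 lower than in white light, against 34.4% of all tested genes higher and 33.1% lower; the members' 34.1% and 29.3% were close to these background shares. With shade in Col-0, 1 member was higher and 22 lower than in white light, 2.44% and 53.7% of the members, against 29.0% and 30.4% of all tested genes. The median log2 change of the members was 0.18 in bbx28-5 and -0.38 in Col-0, and that of all tested genes was 0.001 in bbx28-5 and -0.02 in Col-0. Set side by side, 12 members fell in both genotypes, 9 fell in Col-0 and were not called in bbx28-5, and 12 rose in bbx28-5 and were not called in Col-0. LHCB1.4 rose in both genotypes, PSBO2 rose in bbx28-5 (a call lost under total counts and cyclic loess offsets) and fell in Col-0, and 6 members were called in neither. A call in 1 genotype and none in the other is not a test of a difference, which the interaction gives. The crossed counts were not made for all tested genes, and they moved with the scaling. Under cyclic loess offsets LHCA1, LHCA2, LHCA3, LHCA4, LHCB4.2, PSAE2, PSBO1 and PSBR were called higher with shade in Col-0. LHCB6, PSAK, PSAO, PSBX and PSBY were called lower with shade in bbx28-5 under total counts and under cyclic loess offsets.

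Setting bbx28-5 in shade against Col-0 in shade, 25 members (61.0%) were higher and 0 lower at this threshold, against 20.9% and 14.5% of all tested genes. The DESeq2 test also called 0 members lower, but 3 were called lower under total counts and 5 under cyclic loess offsets. Without replicate 2 of bbx28-5 in shade 2 were called lower. The median log2 difference was 0.45, against 0.033 for all tested genes, and 38 of 41 members were above 0 (29 under total counts and 17 under cyclic loess offsets). In white light, LHCB7 was the member called higher in bbx28-5 than in Col-0, and LHCB1.4 and LHCB2.3 were called lower, against 3.8% and 6.08% of all tested genes; the median log2 difference was -0.12. The difference between the genotypes' shade effects (interaction) was above 0 in 41 of 41 members (37 under total counts and 28 under cyclic loess offsets), with a median of 0.55 against 0.045 for all tested genes. It was called in 8 members, all positive (19.5%), against 6.52% of tested genes called positive and 3.79% called negative.

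The counts are given by class, with the shares of all tested genes in brackets. With shade in bbx28-5 (34.4% higher and 33.1% lower), 4 of the 6 LHCA genes were higher and 2 lower. Of the 9 PSB genes 4 were higher and 1 lower. Of the 14 tested LHCB genes 3 were higher and 6 lower, and of the 12 PSA genes 3 were higher and 3 lower. With shade in Col-0 (29.0% higher and 30.4% lower), 8 LHCB, 2 LHCA, 7 PSA and 5 PSB genes were lower. LHCB1.4 was the member that was higher. Between bbx28-5 and Col-0 in shade, 7 LHCB, 6 LHCA, 5 PSA and 7 PSB genes were higher (20.9%), with median log2 differences of 0.39, 0.63, 0.39 and 0.5. The interaction was called positive in 1 LHCB, 4 LHCA, 0 PSA and 3 PSB genes (6.52%). Without replicate 2 of bbx28-5 in shade it was called positive in 8, 6, 5 and 8 of them (15.6%). The differences between the classes carry no test.

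The library that stood apart and the scaling bear on these counts. Without replicate 2 of bbx28-5 in shade, 13 members were higher and 18 lower with shade in bbx28-5 (all tested genes 36.0% and 36.8%), with a median of -0.09. In that fit 2 members were higher and 30 lower with shade in Col-0 (32.3% and 37.4%). Between the genotypes in shade, 25 were higher and 2 lower (27.4% and 16.2%), with a median of 0.22. In white light 1 was higher and 15 lower (11.2% and 12.7%), and the interaction was called in 27 members, all positive (15.6% positive and 7.2% negative among all tested genes), with a median of 0.33. With libraries scaled by total counts, 6 members were higher and 20 lower with shade in bbx28-5 (23.6% and 45.9% of all tested genes), and 1 higher and 25 lower with shade in Col-0 (26.7% and 32.4%). Between the genotypes, 7 were higher and 3 lower in shade (7.65% and 33.2%), 1 higher and 4 lower in white light (3.4% and 6.31%), and 3 interactions were positive and 0 negative (2.43% and 13.4%). The median of all tested genes itself then moved to -0.339 for shade in bbx28-5, -0.27 between the genotypes in shade and -0.245 for the interaction. Relative to it, the members' medians were 0.16, 0.4 and 0.48, close to the 0.18, 0.42 and 0.5 found with TMM factors. A change of the 1 factor per library moves all genes nearly alike, so this closeness was fixed in advance and is no check. The TMM factors were 0.79 to 0.87 in bbx28-5 in shade and 1.01 to 1.08 in the other groups.

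Offsets from a cyclic loess, which let the scaling of a library vary with a gene's abundance, gave 11 members higher and 17 lower with shade in bbx28-5 (33.9% and 32.9% of all tested genes), and 9 higher and 20 lower with shade in Col-0 (28.3% and 29.6%). Between the genotypes, 5 were higher and 5 lower in shade (19.0% and 13.4%), and 1 higher and 3 lower in white light (3.89% and 5.12%). The interaction was called positive in 3 members and negative in 0 (4.82% and 3.82%), and 28 of 41 interactions were above 0. The members' medians were -0.07 for shade in bbx28-5, -0.05 between the genotypes in shade and 0.06 for the interaction. The excess of members called higher in bbx28-5 in shade than in Col-0 in shade was thus found with 1 factor per library and not with offsets that follow abundance. Of the 14 members that rose with shade in bbx28-5, 6 kept the call under total counts (LHCA3, LHCA4, LHCB1.4, LHCB4.2, PSAE2 and PSBQ2), 11 under cyclic loess and 13 without replicate 2 of bbx28-5 in shade. All 12 that fell there kept it in these 3 fits. Of the 25 called higher in bbx28-5 in shade than in Col-0 in shade, 7 kept the call under total counts and 5 under cyclic loess (LHCA5, LHCA6, LHCB7, PSBO2 and PSBY), and all 25 without replicate 2. The medians over the members with shade in Col-0 were -0.38, -0.43 and -0.26 under TMM factors, total counts and cyclic loess, and -0.42 without replicate 2 of bbx28-5 in shade.

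**Figure D2:**
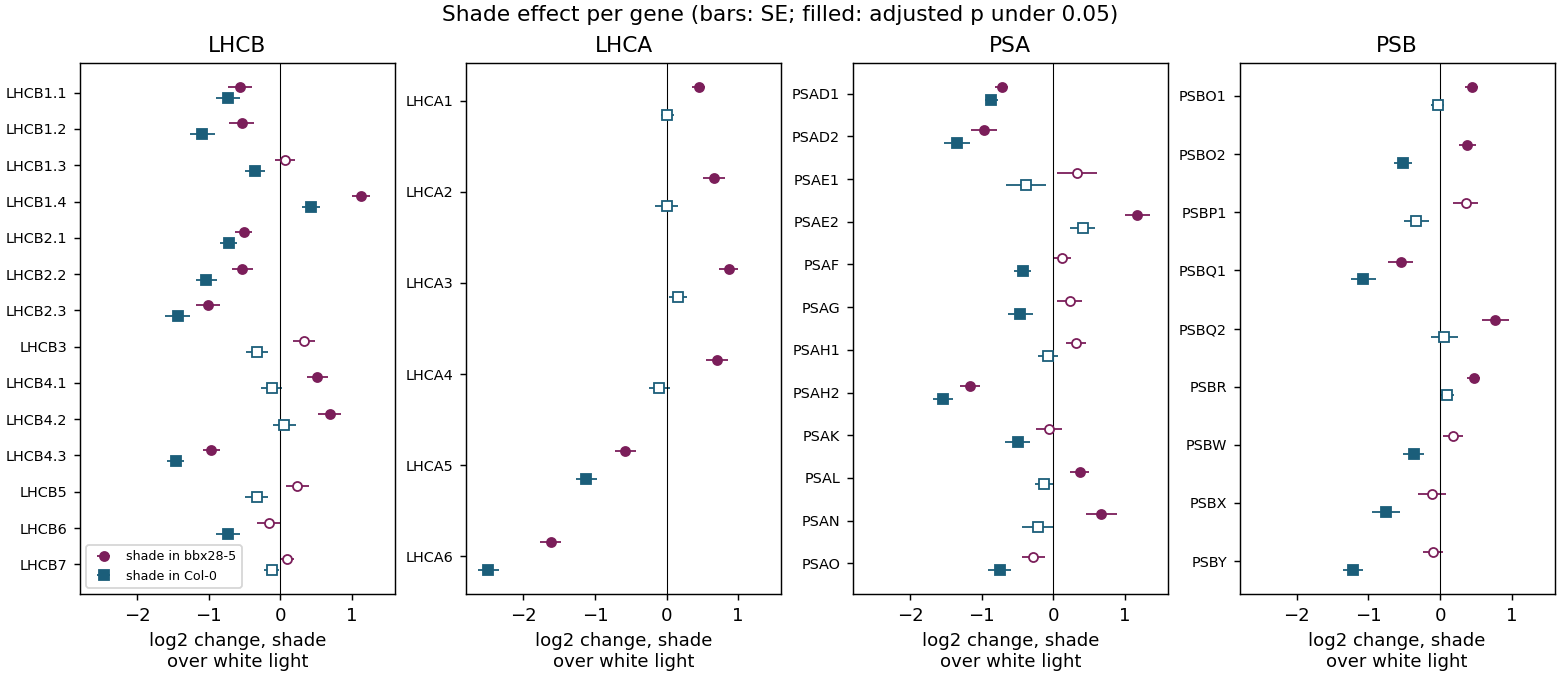
Log2 change with shade over white light (horizontal axis; bars are standard errors of the edgeR fit) for the 41 tested members by class, in bbx28-5 (circles) and in Col-0 (squares); filled symbols have an adjusted p under 0.05. Circles lie to the right of squares for all 41 members under TMM scaling (37 under total counts, 28 under cyclic loess offsets), LHCA5 and LHCA6 lie far left of LHCA1 to LHCA4, and LHCB1.4 is filled on the right in both genotypes.

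Promoters are shown for 3 contrasting sets of members, because family members differed there in their response to shade: LHCA4 and LHCA6, LHCB1.4 and LHCB1.2, and PSAH1 and PSAH2. Each is the 250 bases before the annotated start in the RefSeq TAIR10.1 build, read 5′ to 3′ on the gene's strand; LHCA4, LHCB1.2 and PSAH1 lie on the minus strand and the others on the plus strand. Capitals mark CACGTG (the G-box), GATAAG (the I-box) and CCAAT on either strand.
LHCA4, chr3:17495034-17495283: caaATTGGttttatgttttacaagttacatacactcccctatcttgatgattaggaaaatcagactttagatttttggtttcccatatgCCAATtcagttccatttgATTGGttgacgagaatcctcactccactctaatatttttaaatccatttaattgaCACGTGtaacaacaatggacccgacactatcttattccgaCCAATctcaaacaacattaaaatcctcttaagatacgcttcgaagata
LHCA6, chr1:6612380-6612629: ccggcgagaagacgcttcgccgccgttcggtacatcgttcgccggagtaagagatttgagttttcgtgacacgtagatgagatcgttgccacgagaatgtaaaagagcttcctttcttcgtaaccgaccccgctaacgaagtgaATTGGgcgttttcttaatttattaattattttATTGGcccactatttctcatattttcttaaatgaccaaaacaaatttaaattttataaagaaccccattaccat
LHCB1.4, chr2:14524357-14524606: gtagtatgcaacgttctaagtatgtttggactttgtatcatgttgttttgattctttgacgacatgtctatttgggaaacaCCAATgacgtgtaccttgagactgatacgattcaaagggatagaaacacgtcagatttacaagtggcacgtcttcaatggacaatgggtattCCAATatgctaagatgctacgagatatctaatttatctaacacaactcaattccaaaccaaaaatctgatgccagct
LHCB1.2, chr1:10473503-10473752: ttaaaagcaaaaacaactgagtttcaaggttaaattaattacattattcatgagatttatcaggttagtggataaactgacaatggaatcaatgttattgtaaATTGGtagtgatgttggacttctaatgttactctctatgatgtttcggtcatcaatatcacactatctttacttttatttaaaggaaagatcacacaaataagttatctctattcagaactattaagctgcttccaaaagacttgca
PSAH1, chr3:5469595-5469844: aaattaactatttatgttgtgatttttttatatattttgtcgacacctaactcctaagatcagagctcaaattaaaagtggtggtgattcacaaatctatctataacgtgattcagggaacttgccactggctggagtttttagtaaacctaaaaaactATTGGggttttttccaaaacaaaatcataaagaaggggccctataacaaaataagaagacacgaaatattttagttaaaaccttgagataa
PSAH2, chr1:19454548-19454797: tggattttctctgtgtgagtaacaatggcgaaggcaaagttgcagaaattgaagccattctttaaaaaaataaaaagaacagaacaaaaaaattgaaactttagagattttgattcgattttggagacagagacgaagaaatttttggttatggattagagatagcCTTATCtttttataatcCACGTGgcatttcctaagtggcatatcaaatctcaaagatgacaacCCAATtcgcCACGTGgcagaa

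The LHCA4 window holds 4 CCAAT matches and 1 CACGTG match, the LHCA6 window 2 CCAAT matches and no CACGTG. The PSAH2 window holds 2 CACGTG matches, 1 GATAAG and 1 CCAAT, whereas the PSAH1 window holds 1 CCAAT alone. LHCB1.4 has 2 CCAAT matches and LHCB1.2 has 1. Over the members, CCAAT was present in 28 of 42 windows (66.7%), against 46.1% of the 27561 gene promoters of the same length, and its members were distributed unevenly over the classes: 14 of 15 LHCB, 5 of 6 LHCA, 7 of 12 PSA and 2 of 9 PSB windows. The longer CCAATC, whose matches all overlap a CCAAT, was in 11 of 42 member windows (26.2%), against 10.2% of all promoters, among them 7 LHCB, 3 LHCA, 1 PSB and no PSA window. CACGTG was in 9 of 42 windows (21.4%), against 6.46%, and GATAAG in 9 of 42 (21.4%), against 12.3%. ACGT, which lies inside every CACGTG, was in 22 of 42 (52.4%), against 44.0%. The evening element AAAATATCT was in the LHCA5 window alone (2.38% of members), against 2.36% of all promoters. All motifs were searched on both strands, and a match is a description of letters, not of binding.

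Among the trimeric antenna proteins of photosystem II, encoded by LHCB1, LHCB2 and LHCB3, the copies moved differently. LHCB1.4 (AT2G34430) had 4092, 2904 and 3319 CPM in bbx28-5 in shade, 1599, 1559 and 1546 CPM in bbx28-5 under white light, 3699, 4860 and 4035 CPM in Col-0 in shade and 3169, 3177 and 2992 CPM in Col-0 in white light. It was lowest in the bbx28-5 white-light libraries, whose values did not overlap with those of any other group. The log2 change with shade was 1.13 (SE 0.127, adjusted p = 2.09e-06, edgeR) in bbx28-5 and 0.43 (SE 0.125, adjusted p = 0.00856) in Col-0, and the call in Col-0 ended without replicate 2 of Col-0 in shade (0.32, adjusted p = 0.0509). In white light the log2 difference of bbx28-5 over Col-0 was -0.99 (adjusted p = 0.000242), and the interaction was 0.7 (adjusted p = 0.0236), which leaving out a library ended for 6 of the 12 (adjusted p = 0.0568 to 0.0685). As a share of the LHCB1 reads, LHCB1.4 made up 24.5, 13.3 and 22.4% in bbx28-5 in shade and 8.28 to 8.8% in bbx28-5 in white light, and 26.7 to 27.4% in Col-0 in shade and 14.6 to 15.8% in Col-0 in white light. This share was higher in every shade library than in any white-light library of the same genotype, and higher in Col-0 than in bbx28-5 within each light.

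The neighbouring copies LHCB1.1 and LHCB1.2 went the other way. LHCB1.2 (AT1G29910) had 2636, 4515 and 2569 CPM in bbx28-5 in shade against 4564, 4693 and 4881 CPM in bbx28-5 in white light. In Col-0 it had 2423, 3027 and 2468 CPM in shade against 5797, 5490 and 5565 CPM in white light. It fell by 0.54 on the log2 scale in bbx28-5 (adjusted p = 0.0134, edgeR) and fell by 1.09 in Col-0 (adjusted p = 0.000102). LHCB1.1 fell by 0.56 in bbx28-5 and fell by 0.73 in Col-0. Without replicate 2 the bbx28-5 falls were deeper, with log2 changes of -0.87 for LHCB1.2 and -0.89 for LHCB1.1. LHCB1.3 (AT1G29930), the highest LHCB1 copy, had 7695, 10405 and 6668 CPM in bbx28-5 in shade, 7912, 7583 and 8025 CPM in bbx28-5 under white light, 5531, 7097 and 6048 CPM in Col-0 in shade and 8342, 7554 and 7879 CPM in Col-0 in white light. It fell by 0.35 with shade in Col-0 (adjusted p = 0.0472) and was 0.41 higher in bbx28-5 in shade than in Col-0 in shade (adjusted p = 0.0382). Leaving out a library ended these 2 calls for 8 and 7 of the 12 libraries, at adjusted p up to 0.176 and 0.155. The genotype difference was 0.23 and called without replicate 2 of bbx28-5 in shade, and under cyclic loess offsets both values changed sign (0.1 and -0.18, neither called).

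All 3 LHCB2 copies fell with shade in both genotypes, with log2 changes of -1.01 to -0.51 in bbx28-5 and of -1.43 to -0.72 in Col-0. LHCB2.3 (AT3G27690) was the most changed of them, with 503, 821 and 451 CPM in bbx28-5 in shade, 1232, 1141 and 1206 CPM in bbx28-5 under white light, 622, 754 and 642 CPM in Col-0 in shade and 1905, 1800 and 1738 CPM in Col-0 in white light. All shade libraries lay below all white-light libraries, and the bbx28-5 white-light libraries lay below those of Col-0. The white-light difference between bbx28-5 and Col-0 was -0.6 (SE 0.171, adjusted p = 0.0385, edgeR), a call lost for 8 of the 12 libraries left out in turn. In shade the difference was -0.19 and not called (adjusted p = 0.427, edgeR). It was called lower in bbx28-5 without replicate 2 of bbx28-5 in shade (-0.47), under total counts (-0.5) and under cyclic loess offsets (-0.57). Part of LHCB2.3 (595 bases) is overlapped by the opposite-strand gene AT3G27700. LHCB3 (AT5G54270) had 7075, 11442 and 6767 CPM in bbx28-5 in shade and 6878, 6781 and 6504 CPM in bbx28-5 in white light, with a log2 change of 0.33 that was not called (adjusted p = 0.0766). In Col-0 it had 5913, 6157 and 5679 CPM in shade and 7680, 7258 and 7285 CPM in white light. Without replicate 2 of bbx28-5 in shade, its change was 0.03 in bbx28-5 (adjusted p = 0.73) and -0.37 in Col-0 (adjusted p = 4.95e-06).

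The monomeric antenna proteins LHCB4, LHCB5 and LHCB6 connect the trimers to the photosystem II core. LHCB4.1 (AT5G01530) had 4179, 6018 and 3596 CPM in bbx28-5 in shade, 3156, 3272 and 3204 CPM in bbx28-5 under white light, 2881, 3416 and 3030 CPM in Col-0 in shade and 3531, 3279 and 3314 CPM in Col-0 in white light. LHCB4.2 (AT3G08940) had 2621, 3877 and 2205 CPM in bbx28-5 in shade, 1790, 1766 and 1825 CPM in bbx28-5 under white light, 1908, 2335 and 2087 CPM in Col-0 in shade and 2092, 1991 and 1973 CPM in Col-0 in white light. Both rose with shade in bbx28-5, by 0.52 (adjusted p = 0.00651, edgeR) and 0.69 (adjusted p = 0.00139), and by 0.26 and 0.41 without replicate 2, with both calls kept; under total counts LHCB4.1 was not called (0.16). In Col-0 the changes were -0.12 and 0.06 and were not called. LHCB4.3 (AT2G40100), a copy at far lower level, had 23.8, 32.3 and 28.6 CPM in bbx28-5 in shade against 50.2, 56.0 and 58.5 CPM in white light, and 26.1, 27.7 and 22.6 CPM in Col-0 in shade against 72.8, 68.8 and 67.9 CPM in white light. It fell by 0.96 in bbx28-5 (adjusted p = 6.27e-06) and fell by 1.46 in Col-0 (adjusted p = 1.23e-07), so the LHCB4 copies differed in direction in bbx28-5. LHCB5 had log2 changes of 0.24 in bbx28-5 and -0.33 in Col-0 that were not called, and LHCB6 fell by 0.73 in Col-0 with -0.16 in bbx28-5, not called; both were higher in bbx28-5 in shade than in Col-0 in shade, by 0.45 and 0.51. Leaving out a library ended these calls for 8 and 2 of the 12. The differences were 0.13 and 0.19 under total counts and -0.14 and 0.02 under cyclic loess offsets, none called. They were 0.17 and 0.24 without replicate 2 of bbx28-5 in shade, both called, LHCB6 also fell in bbx28-5, by 0.48, and LHCB5 fell in Col-0, by 0.38.

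LHCB7 (AT1G76570), a divergent member at low level, was the exception in its dependence on genotype. It had 34.5, 39.7 and 37.0 CPM in bbx28-5 in shade against 21.3, 23.6 and 22.4 CPM in Col-0 in shade, and 32.3, 33.0 and 38.4 CPM in bbx28-5 in white light against 25.6, 24.1 and 23.6 CPM in Col-0 in white light. All 6 libraries of bbx28-5 lay above all 6 of Col-0. The log2 difference was 0.72 (SE 0.0994, adjusted p = 0.000112, edgeR) in shade and 0.5 (SE 0.0978, adjusted p = 0.00514) in white light, and neither shade change was called (0.1 in bbx28-5, -0.12 in Col-0). Without replicate 2 of bbx28-5 in shade the genotype differences were 0.7 and 0.5, both called.

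The LHCA proteins form the belt of antenna proteins around photosystem I. LHCA1, LHCA2, LHCA3 and LHCA4, which make up that belt, rose with shade in bbx28-5 and were not called in Col-0. LHCA4 (AT3G47470) had 10549, 17449 and 10980 CPM in bbx28-5 in shade, 8026, 7944 and 8017 CPM in bbx28-5 under white light, 7485, 8203 and 7768 CPM in Col-0 in shade and 8445, 8372 and 8399 CPM in Col-0 in white light. Its bbx28-5 shade libraries lay above all other libraries, also without replicate 2. The log2 change with shade was 0.7 in bbx28-5 (SE 0.151, adjusted p = 0.000893, edgeR) and -0.1 in Col-0 (SE 0.15, adjusted p = 0.571), with an interaction of 0.8 (adjusted p = 0.029). LHCA3 (AT1G61520) had 7240, 10620 and 6987 CPM in bbx28-5 in shade, 4498, 4537 and 4563 CPM in bbx28-5 under white light, 5390, 5783 and 5285 CPM in Col-0 in shade and 5031, 4851 and 4825 CPM in Col-0 in white light. Again the bbx28-5 shade libraries were the highest of all 12, with a log2 change of 0.87 (adjusted p = 4.48e-05), against 0.16 in Col-0 (adjusted p = 0.305), and an interaction of 0.71 (adjusted p = 0.0287).

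LHCA1 (AT3G54890) rose by 0.45 in bbx28-5 (SE 0.0904, adjusted p = 0.000544, edgeR), with 9263, 8012 and 8652 CPM in shade against 6216, 6171 and 6633 CPM in white light. In Col-0 it had 6672, 7721 and 7180 CPM in shade and 7298, 7159 and 7007 CPM in white light, a change of 0.01. It was among the 2 members that were lowest in replicate 2 of its bbx28-5 shade group, and it rose in bbx28-5 without that library too. LHCA2 had 4032, 6308 and 3624 CPM in bbx28-5 in shade against 2950, 2980 and 2914 CPM in bbx28-5 in white light, a rise of 0.66 (adjusted p = 0.00195). Without replicate 2 the rises of LHCA1, LHCA2, LHCA3 and LHCA4 in bbx28-5 were 0.48, 0.36, 0.63 and 0.41, all called, and the interactions were 0.52, 0.41, 0.52 and 0.56, all called. In that fit LHCA4 also fell in Col-0, by 0.15 (adjusted p = 0.0187). The interaction calls of LHCA1, LHCA3 and LHCA4 were close to the threshold, and ended at adjusted p of 0.0507 to 0.106, 0.0568 to 0.0747 and 0.0512 to 0.0693 on leaving out 9, 8 and 9 of the 12 libraries in turn. Under total counts the difference of LHCA1 between bbx28-5 and Col-0 in shade was -0.03 and under cyclic loess offsets -0.27, against 0.27 under TMM factors, so its direction depends on the scaling. Cyclic loess also called all 4 genes higher with shade in Col-0, by 0.45, 0.3, 0.56 and 0.38 for LHCA1, LHCA2, LHCA3 and LHCA4. In bbx28-5 it gave 0.3 for LHCA1 (adjusted p = 0.059, not called) and called rises of 0.41, 0.65 and 0.5 for the others, and its interactions of -0.15, 0.1, 0.09 and 0.12 were not called. Under total counts the changes in bbx28-5 were 0.11 (adjusted p = 0.283) for LHCA1 and 0.3 (adjusted p = 0.0508) for LHCA2, not called, and 0.52 and 0.34 for LHCA3 and LHCA4, called. The interactions were then 0.15, 0.36, 0.4 and 0.5, none called. That these 4 genes rose in bbx28-5 and were not called in Col-0 therefore holds under TMM factors with all libraries. It does not hold under total counts, under cyclic loess or without replicate 2 of bbx28-5 in shade.

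LHCA5 and LHCA6, which link photosystem I to the NDH complex of cyclic electron flow, fell with shade in both genotypes. LHCA6 (AT1G19150) had 49.7, 80.0 and 55.1 CPM in bbx28-5 in shade against 187, 192 and 189 CPM in bbx28-5 in white light. In Col-0 it had 36.5, 35.8 and 32.6 CPM in shade against 209, 190 and 191 CPM in white light. It had the deepest fall of any member, with log2 changes of -1.62 (SE 0.142, adjusted p = 1.67e-07, edgeR) in bbx28-5 and -2.49 (SE 0.146, adjusted p = 5.02e-09) in Col-0. The fall was shallower in bbx28-5, with an interaction of 0.87 (SE 0.197, adjusted p = 0.0141) and of 0.67 without replicate 2. LHCA5 fell by 0.58 in bbx28-5 (adjusted p = 0.00294) and fell by 1.12 in Col-0 (adjusted p = 1.57e-05), with an interaction of 0.54 that was not called (adjusted p = 0.113) and was 0.33 and called without replicate 2 (adjusted p = 0.0202). Within each library, LHCA5 and LHCA6 together took 0.481 to 0.579% of all LHCA reads in bbx28-5 in shade against 1.7 to 1.73% in bbx28-5 in white light, and 0.461 to 0.489% in Col-0 in shade against 1.49 to 1.56% in Col-0 in white light. The LHCA class thus held members of opposite direction in bbx28-5, and all 6 were called higher in bbx28-5 in shade than in Col-0 in shade, by 0.27 to 0.82, and by 0.22 to 0.61 without replicate 2, though 4 of them were called under total counts and 2 under cyclic loess offsets, where LHCA1 (-0.27) and LHCA2 (-0.05) turned below 0.

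**Figure D3:**
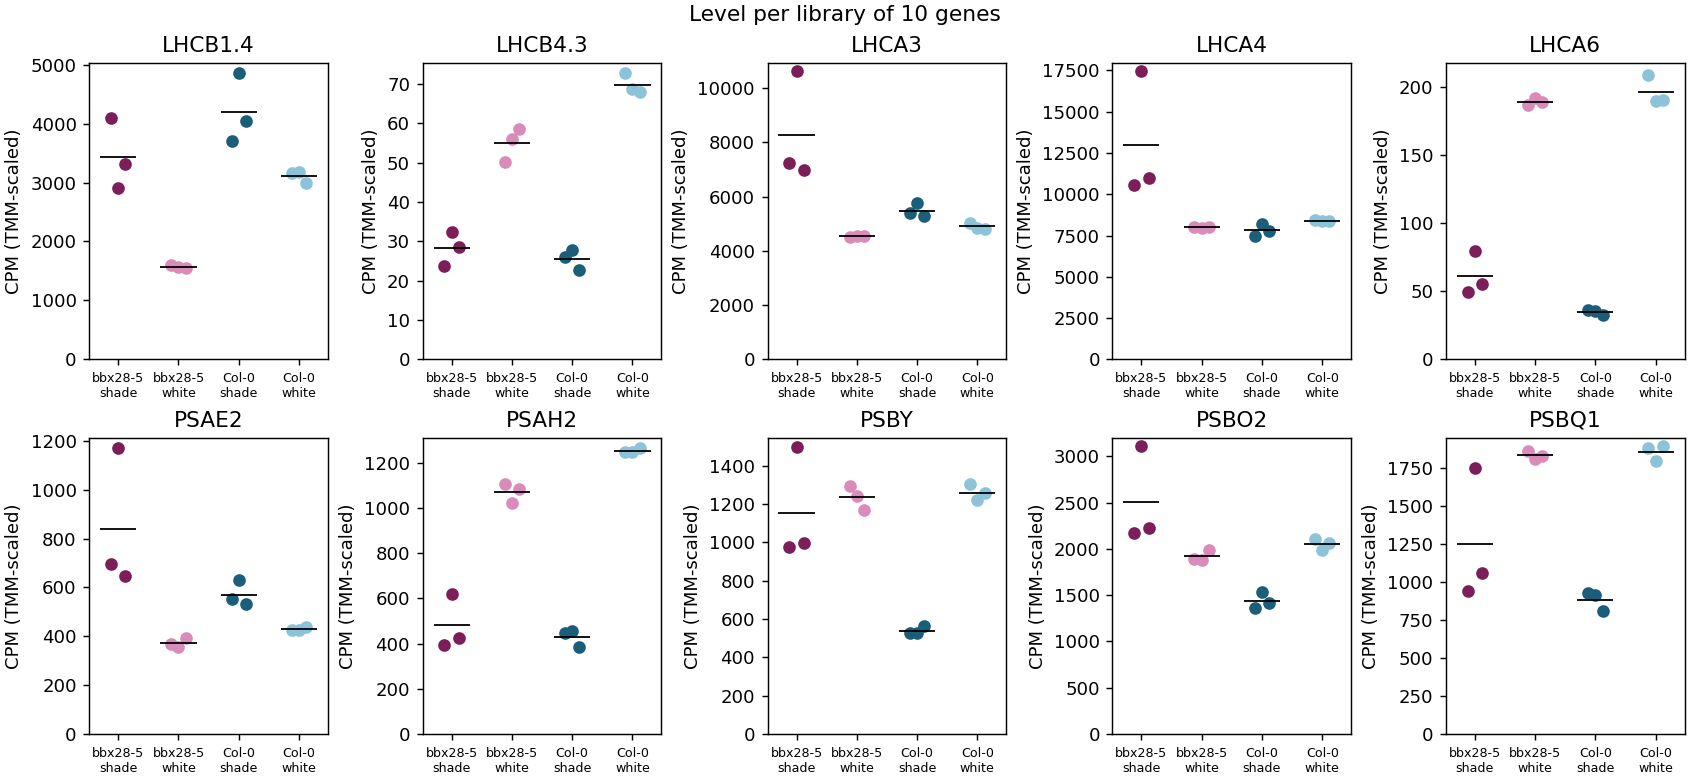
Level of 10 members in every library (vertical axis, TMM-scaled CPM, from 0) in bbx28-5 in shade, bbx28-5 in white light, Col-0 in shade and Col-0 in white light; points are libraries and lines group means of 3. LHCB1.4, LHCA3, LHCA4 and PSAE2 are higher in bbx28-5 in shade than in bbx28-5 in white light, LHCB4.3, LHCA6, PSAH2 and PSBQ1 are lower in shade in both genotypes, and PSBY is at 526 to 563 CPM in Col-0 in shade against 973 to 1497 CPM in bbx28-5 in shade.

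Of the photosystem I subunits, PSAD and PSAE form the stromal side where ferredoxin docks, and each has 2 gene copies. PSAD1 (AT4G02770) had 1088, 1278 and 1064 CPM in bbx28-5 in shade, 1946, 1821 and 1887 CPM in bbx28-5 under white light, 1201, 1311 and 1158 CPM in Col-0 in shade and 2248, 2201 and 2246 CPM in Col-0 in white light. PSAD2 (AT1G03130) had 337, 614 and 328 CPM in bbx28-5 in shade, 865, 785 and 854 CPM in bbx28-5 under white light, 431, 428 and 404 CPM in Col-0 in shade and 1075, 1045 and 1081 CPM in Col-0 in white light. Both copies fell in both genotypes, with log2 changes in bbx28-5 and in Col-0 of -0.72 and -0.87 for PSAD1 and of -0.97 and -1.34 for PSAD2. PSAE2 (AT2G20260) had 698, 1173 and 646 CPM in bbx28-5 in shade, 369, 356 and 392 CPM in bbx28-5 under white light, 551, 629 and 533 CPM in Col-0 in shade and 426, 426 and 440 CPM in Col-0 in white light. It had the largest rise of any member with shade in bbx28-5, 1.17 (SE 0.173, adjusted p = 3.37e-05, edgeR); without replicate 2 it rose by 0.83, less than LHCB1.4 (1.22). In Col-0 the change of 0.41 was not called (adjusted p = 0.0536), and was called without replicate 2 of bbx28-5 in shade (0.36, adjusted p = 2.75e-05). PSAE1 (AT4G28750) had 807, 2162 and 815 CPM in bbx28-5 in shade, 1066, 954 and 988 CPM in bbx28-5 under white light, 962, 952 and 865 CPM in Col-0 in shade and 1200, 1172 and 1232 CPM in Col-0 in white light. Its change in bbx28-5 was 0.33 with replicate 2 (adjusted p = 0.299) and -0.32 without it (adjusted p = 0.000178), so that library sets the direction.

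PSAH, PSAL and PSAO lie on the side of photosystem I where mobile trimeric antenna docks, and PSAF and PSAN on the side where plastocyanin delivers electrons. PSAH2 (AT1G52230) had 394, 621 and 426 CPM in bbx28-5 in shade, 1109, 1023 and 1084 CPM in bbx28-5 under white light, 449, 456 and 386 CPM in Col-0 in shade and 1247, 1248 and 1268 CPM in Col-0 in white light. It fell by 1.16 (SE 0.141, adjusted p = 5.05e-06, edgeR) in bbx28-5 and fell by 1.54 (SE 0.142, adjusted p = 4.39e-07) in Col-0, and no shade library reached a white-light level. PSAH1 (AT3G16140), which shares 87.0% of its coding bases with PSAH2, had 598, 880 and 581 CPM in bbx28-5 in shade, 563, 524 and 573 CPM in bbx28-5 under white light, 587, 614 and 506 CPM in Col-0 in shade and 635, 593 and 572 CPM in Col-0 in white light. Its changes were 0.31 in bbx28-5 and -0.08 in Col-0, neither called. PSAO fell by 0.75 in Col-0 (adjusted p = 0.000927), with -0.28 in bbx28-5 (adjusted p = 0.126), where it fell by 0.59 without replicate 2.

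PSAL (AT4G12800) had 3337, 4715 and 3089 CPM in bbx28-5 in shade, 2850, 2885 and 2882 CPM in bbx28-5 under white light, 2691, 3121 and 2658 CPM in Col-0 in shade and 3196, 3055 and 3046 CPM in Col-0 in white light. It rose by 0.37 with shade in bbx28-5 (adjusted p = 0.0234, edgeR), a call that ended without replicate 2 of that group (0.15, adjusted p = 0.0681) and without each bbx28-5 white-light library (0.37, adjusted p = 0.0524 to 0.0576). PSAN (AT5G64040) had 2597, 5600 and 2634 CPM in bbx28-5 in shade, 2330, 2230 and 2254 CPM in bbx28-5 under white light, 2387, 2412 and 2181 CPM in Col-0 in shade and 2640, 2723 and 2741 CPM in Col-0 in white light. Its rise in bbx28-5 was 0.67 (adjusted p = 0.0144) with replicate 2 and 0.19 (adjusted p = 0.0103) without it, and it was not called under total counts (0.3, adjusted p = 0.174). PSAF (AT1G31330) had 3197, 4475 and 3112 CPM in bbx28-5 in shade, 3414, 3151 and 3336 CPM in bbx28-5 under white light, 2668, 2917 and 2657 CPM in Col-0 in shade and 3784, 3681 and 3641 CPM in Col-0 in white light. It fell by 0.43 in Col-0 (adjusted p = 0.00749) and was 0.39 higher in bbx28-5 in shade than in Col-0 in shade (adjusted p = 0.024). That genotype call ended without replicate 1 or 3 of Col-0 in shade (0.36 and 0.35), and the difference was 0.23 without replicate 2 of bbx28-5 in shade and -0.12 under cyclic loess. The PSAF change with shade in Col-0 was -0.13 under cyclic loess and not called (adjusted p = 0.0964, edgeR). PSAG, which anchors the LHCA belt, and PSAK fell in Col-0, with log2 changes of -0.46 and -0.5, and were not called in bbx28-5 (0.23 and -0.06), where PSAK fell by 0.42 without replicate 2. Leaving out a library ended the Col-0 calls of PSAG and PSAK for 6 and 3 of the 12. No PSA gene was called in white light between the genotypes or in the interaction. Without replicate 2 of bbx28-5 in shade, 8 of the 12 were lower in bbx28-5 in white light (12.7% of all tested genes). In that fit 5 had a positive interaction (15.6% of all tested genes).

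PSBO, PSBP and PSBQ are the extrinsic proteins that shield the water-splitting cluster of photosystem II on the lumenal side. PSBO2 (AT3G50820) had 2175, 3116 and 2228 CPM in bbx28-5 in shade, 1894, 1882 and 1989 CPM in bbx28-5 under white light, 1365, 1535 and 1411 CPM in Col-0 in shade and 2111, 1989 and 2067 CPM in Col-0 in white light. All bbx28-5 shade libraries were the highest and all Col-0 shade libraries the lowest. Its log2 change was 0.38 in bbx28-5 (SE 0.121, adjusted p = 0.0122, edgeR) and -0.52 in Col-0 (SE 0.122, adjusted p = 0.00216), and the interaction was 0.9 (SE 0.172, adjusted p = 0.00601). Without replicate 2 the rise in bbx28-5 was 0.18 (adjusted p = 0.0155) and the interaction 0.74 (adjusted p = 2.24e-06). The rise in bbx28-5 was 0.03 under total counts (adjusted p = 0.781) and 0.12 under cyclic loess (adjusted p = 0.161), not called, while the fall in Col-0 (-0.57 and -0.31) and the interaction (0.6 and 0.43) stayed called. PSBO1 (AT5G66570), the more abundant copy, had 8005, 8580 and 7419 CPM in bbx28-5 in shade, 5738, 5754 and 6168 CPM in bbx28-5 under white light, 5380, 6340 and 5625 CPM in Col-0 in shade and 6050, 5734 and 5874 CPM in Col-0 in white light. It rose by 0.44 in bbx28-5 (adjusted p = 0.000721) with -0.03 in Col-0 (adjusted p = 0.827). The change in bbx28-5 was 0.1 under total counts, not called, and cyclic loess called rises of 0.26 in bbx28-5 and 0.39 in Col-0. Its interaction of 0.47 (adjusted p = 0.0369) was 0.45 without replicate 2 and -0.13 under cyclic loess offsets, and leaving out a library ended its call for 8 of the 12 (adjusted p = 0.0603 to 0.0938). PSBP1 was 0.59 higher in bbx28-5 in shade than in Col-0 in shade (adjusted p = 0.019), and 0.27 without replicate 2, a call that ended without 2 of the 12 libraries left out in turn.

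PSBQ1 (AT4G21280) had 943, 1755 and 1063 CPM in bbx28-5 in shade, 1862, 1812 and 1832 CPM in bbx28-5 under white light, 931, 918 and 808 CPM in Col-0 in shade and 1885, 1797 and 1898 CPM in Col-0 in white light. It fell by 0.55 (adjusted p = 0.0111, edgeR) in bbx28-5 and fell by 1.07 (adjusted p = 0.000102) in Col-0, and without replicate 2 the change in bbx28-5 was -0.89. PSBQ2 (AT4G05180) had 1990, 3836 and 2087 CPM in bbx28-5 in shade, 1585, 1494 and 1549 CPM in bbx28-5 under white light, 2077, 2120 and 1890 CPM in Col-0 in shade and 1912, 1894 and 2022 CPM in Col-0 in white light. It rose by 0.77 in bbx28-5 (adjusted p = 0.00217), and by 0.39 without replicate 2 (adjusted p = 1.43e-05), against 0.06 in Col-0, not called. The PSBQ copies thus moved in opposite directions in bbx28-5, and PSBQ2 values of bbx28-5 in shade apart from replicate 2 lay within the range of Col-0 in shade.

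The small subunits PSBR, PSBW, PSBX and PSBY lie at the periphery of photosystem II. PSBY (AT1G67740) had 973, 1497 and 994 CPM in bbx28-5 in shade, 1293, 1240 and 1170 CPM in bbx28-5 under white light, 528, 526 and 563 CPM in Col-0 in shade and 1303, 1220 and 1255 CPM in Col-0 in white light. The Col-0 shade libraries stood below all others. Its difference between bbx28-5 and Col-0 in shade, 1.1 (SE 0.137, adjusted p = 5.37e-05, edgeR), and its interaction, 1.13 (SE 0.192, adjusted p = 0.00308), were the largest of any member. With shade in bbx28-5 it changed by -0.1 (adjusted p = 0.544) and in Col-0 it fell by 1.22 (adjusted p = 3.26e-06). Without replicate 2 it fell in bbx28-5 too, by 0.34 (adjusted p = 4.9e-05), while the interaction was 0.93 (adjusted p = 1.12e-07). PSBR (AT1G79040), which supports binding of the extrinsic proteins, had 5450, 5003 and 4809 CPM in bbx28-5 in shade, 3519, 3695 and 3818 CPM in bbx28-5 under white light, 3515, 4226 and 3849 CPM in Col-0 in shade and 3635, 3532 and 3614 CPM in Col-0 in white light. It rose by 0.47 in bbx28-5 (SE 0.0915, adjusted p = 0.000409), and by 0.46 without replicate 2, with 0.1 in Col-0, not called (adjusted p = 0.343). Under total counts it changed by 0.13 in bbx28-5 (adjusted p = 0.189) and 0.05 in Col-0, not called, and cyclic loess called it higher with shade in both, by 0.27 in bbx28-5 (adjusted p = 0.0332) and 0.44 in Col-0 (adjusted p = 0.00247). PSBW and PSBX fell in Col-0, with log2 changes of -0.37 and -0.76, and were not called in bbx28-5 (0.18 and -0.11), where PSBX fell by 0.51 without replicate 2. Leaving out a library ended the PSBW call in Col-0 for 8 of the 12, and it was -0.12 and not called under cyclic loess.

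Shares of reads between the 2 copies of a pair were compared within each library, so that a single scaling factor per library cancels. Offsets that follow abundance could still move a share and were not applied to it. Light labels were permuted within each genotype for the shade effect, and genotype labels within each light for the genotype effect and the interaction, with exact two-sided tests over 400 arrangements, a smallest possible p of 0.005 and adjustment over the 18 tests of 6 pairs. PSAH1 took 58.9% ± 1.31 of the PSAH reads in bbx28-5 in shade, 34.0% ± 0.464 in bbx28-5 in white light, 56.9% ± 0.399 in Col-0 in shade and 32.3% ± 1.33 in Col-0 in white light (SD, n = 3 each). The shade libraries of both genotypes thus held mostly PSAH1 and the white-light libraries mostly PSAH2, a shift of 24.7 percentage points (adjusted p = 0.0129, exact permutation). The PSAH1 share was also 1.82 points higher in bbx28-5 than in Col-0 (adjusted p = 0.0225, exact permutation). Leaving out a library ended that call for 4 of the 12 (adjusted p = 0.05, exact permutation). PSBQ1 took 32.4% ± 1.2 of the PSBQ reads in bbx28-5 in shade, 54.3% ± 0.411 in bbx28-5 in white light, 30.4% ± 0.523 in Col-0 in shade and 48.9% ± 0.652 in Col-0 in white light (SD, n = 3 each). That was a shift of -20.2 points with shade and a difference of 3.73 points between bbx28-5 and Col-0 (adjusted p = 0.0129 each, exact permutation). PSAE1 took 58.1% ± 5.95 of the PSAE reads in bbx28-5 in shade, 72.9% ± 1.33 in bbx28-5 in white light, 61.9% ± 1.67 in Col-0 in shade and 73.6% ± 0.23 in Col-0 in white light (SD, n = 3 each), a shift of -13.3 points (adjusted p = 0.0129, exact permutation).

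Smaller shifts were found in the other pairs. The LHCB4.1 share of the LHCB4.1 and LHCB4.2 reads was 61.4% ± 0.59 in bbx28-5 in shade, 64.2% ± 0.689 in bbx28-5 in white light, 59.6% ± 0.506 in Col-0 in shade and 62.6% ± 0.305 in Col-0 in white light (SD, n = 3 each). The difference was -2.86 points for shade over white light and 1.71 points for bbx28-5 over Col-0 (adjusted p = 0.0129 each, exact permutation). The PSAD1 share was 5.42 points higher in shade (adjusted p = 0.04, exact permutation), and 6.9 points higher without replicate 2 of bbx28-5 in shade. That call ended without replicate 1 or 3 of bbx28-5 in shade (4.7 and 4.68 points, adjusted p = 0.07 and 0.063, exact permutation) and without replicate 2 of Col-0 in shade (5.17 points, adjusted p = 0.05, exact permutation). PSBO1 took 76.3% ± 2.69 of the PSBO reads in bbx28-5 in shade, 75.4% ± 0.218 in bbx28-5 in white light, 80.1% ± 0.386 in Col-0 in shade and 74.1% ± 0.137 in Col-0 in white light (SD, n = 3 each). The shade effect on this share differed by -5.04 points between bbx28-5 and Col-0 (adjusted p = 0.0129, exact permutation) and by -3.57 points without replicate 2, and the call ended without replicate 2 of Col-0 in shade (-4.82 points, adjusted p = 0.05, exact permutation). Without replicate 2 of bbx28-5 in shade, the PSBO1 share was also called 4.17 points higher in shade (adjusted p = 0.01, exact permutation), and genotype differences were called for the PSAD1 share (1.83 points) and the PSAE1 share (-3.94 points). The interaction was not called for the other 5 pairs (adjusted p = 0.327 to 0.937, exact permutation). A genotype difference common to both lights enters the arrangements of that test, so these p-values do not show that the shade shifts were alike, and for PSBQ1 the shift differed by -3.37 points. Copies within these pairs share 76.5 to 87.0% of their coding bases, with runs of identical bases of at most 35, against 74 to 119 between LHCB1.1, LHCB1.2 and LHCB1.3.

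**Figure D4:**
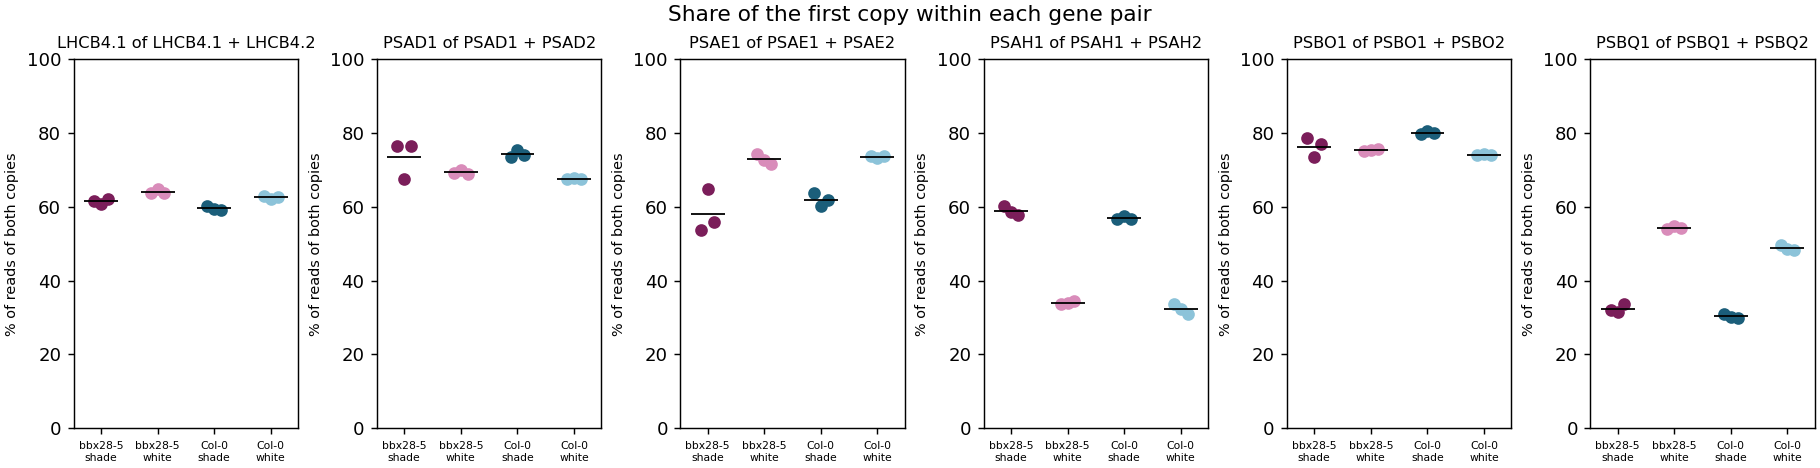
Share of reads of the first-named copy among the reads of both copies (vertical axis, percent, from 0 to 100) for 6 gene pairs in bbx28-5 in shade, bbx28-5 in white light, Col-0 in shade and Col-0 in white light; points are libraries and lines group means of 3. PSAH1 is near 58.9 and 56.9% in shade and 34.0 and 32.3% in white light, PSBQ1 and PSAE1 shift the other way, and the LHCB4 and PSBO shares move by a few points.

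Other nuclear genes of the photosynthetic apparatus were counted for comparison, 27 genes in 4 lists. With shade in bbx28-5, 4 of the 27 were higher and 14 lower (34.4% and 33.1% of all tested genes), and with shade in Col-0, 1 was higher and 22 lower (29.0% and 30.4%). Between bbx28-5 and Col-0, 22 were higher and 0 lower in shade (20.9% and 14.5%), and 2 were higher and 1 lower in white light (3.8% and 6.08%), while 8 interactions were called, all positive (6.52% positive, 3.79% negative). Without replicate 2 of bbx28-5 in shade, 4 were higher and 19 lower with shade in bbx28-5 (36.0% and 36.8%), 23 higher and 1 lower between the genotypes in shade (27.4% and 16.2%), and 18 interactions were positive (15.6%). Under cyclic loess, 1 was higher and 17 lower with shade in bbx28-5 (33.9% and 32.9%), 13 higher and 2 lower between the genotypes in shade (19.0% and 13.4%), and 1 interaction was positive (4.82%). Under total counts, 11 were higher and 2 lower between the genotypes in shade (7.65% and 33.2%), and 2 interactions were positive and 1 negative (2.43% and 13.4%). Of the 11 electron transport genes, 3 rose and 5 fell with shade in bbx28-5, and 1 rose and 8 fell in Col-0. PGRL1B rose in both (0.82 in bbx28-5, 0.44 in Col-0) and its partner PGRL1A fell in both (-0.43 and -1.23), as did the plastocyanin gene PETE1 (-1.16 and -1.86). Of the 3 genes of the ATP synthase, ATPD fell most (-2.16 in bbx28-5, -2.17 in Col-0). In the list of 10 assembly factors, PSB28 changed by -2.85 in bbx28-5 and -3.1 in Col-0, falling more than any of the 42 members, and PSB27, an assembly factor of photosystem II, was 1.09 higher in bbx28-5 in shade than in Col-0 in shade. The 3 kinases and phosphatases of the antenna, STN7, STN8 and TAP38, fell in Col-0 and were higher in bbx28-5 in shade than in Col-0 in shade, by 0.44, 0.71 and 0.53, with only STN7 falling in bbx28-5.

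Of the marker sums for tissues of a whole seedling, that of the root genes did not overlap between any of the 4 groups. The mesophyll sums overlapped between the genotypes in white light, and the seed and epidermal sums overlapped between several groups. The summed level of 6 mesophyll genes (RBCS1A, RBCS1B, RBCS2B, RBCS3B, CA1, RCA) was 29226 to 39202 CPM in bbx28-5 in shade, 45484 to 46280 CPM in bbx28-5 under white light, 20383 to 23040 CPM in Col-0 in shade and 41730 to 46302 CPM in Col-0 in white light. Between the genotypes in shade this sum was thus higher in bbx28-5 under TMM scaling. Of the 41 tested members, 38 were above 0 there under TMM scaling and 17 under cyclic loess offsets. Of 5 root genes, the sum was 64.5 to 81.7 CPM in bbx28-5 in shade, 50.2 to 52.5 CPM in bbx28-5 under white light, 92.1 to 110 CPM in Col-0 in shade and 116 to 129 CPM in Col-0 in white light. The sum of 4 seed genes was 135 to 768 CPM in bbx28-5 in shade and 152 to 280 CPM in bbx28-5 in white light, against 40.7 to 106 CPM in Col-0 in shade and 46.3 to 126 CPM in Col-0 in white light; in replicate 2 of bbx28-5 in shade it was 278 CPM. The sum of 2 epidermal genes was 242 to 330, 306 to 331, 239 to 280 and 258 to 276 CPM in these 4 groups. None of the 17 marker genes was at 0 in all libraries of a group, and their part in the members' differences was not tested.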

How the data were processed

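The RNA-seq libraries were made from whole seedlings with a stranded mRNA kit, per the labels' protocols. Whole-number read counts per gene were deposited by the authors, and a table of log2-scale normalized expression for 19724 genes was deposited beside them and used here as a check (recomputed from the counts within 4.97e-14) and for an alternative gene set. FastQC, HISAT, SAMtools, HTSeq and edgeR with the TAIR10 build are named in the submitters' processing notes; their versions and the strand setting of the counting are not given in the sources used here. 

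Counts were fitted with edgeR 4.0.16 (quasi-likelihood, TMM factors, genes kept by filterByExpr, 19711 of 32833) in R 4.3.3 with 4 group means and 5 contrasts, and p-values were adjusted by the Benjamini-Hochberg method over all tested genes. The fit was tested on simulated data. Levels are TMM-scaled CPM. Read shares of gene copies were tested by exact permutation in Python 3.11.15. Gene names, lengths, promoters and coding sequences came from RefSeq TAIR10.1; identity between copies was computed from coding sequences in place of protein sequences. Alternatives were DESeq2 1.42.0, other scalings (with limma 3.58.1 for cyclic loess), no filter, a replicate block, 2-group fits and leaving out each library.

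The 42 members, the gene lists and the tests were chosen with earlier results of these data known. Members are named by a rule: in each class and comparison the called member with the largest rise and the largest fall, the 2 highest per kilobase in each class, and both copies of a pair whose share passed its test; others are named beside them to complete a family. Same-numbered replicates were not paired: their residual correlations ran from -0.123 to 0.0975 over 18 pairs.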

Additional observations from a re-analysis of the deposited data

Results flagged for a closer look

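The effect of shade differed between bbx28-5 and Col-0, by the test of the difference itself in edgeR, for 8 members. The differences of the log2 changes were 1.13 for PSBY, 0.9 for PSBO2, 0.87 for LHCA6, 0.8 for LHCA4, 0.71 for LHCA3, 0.7 for LHCB1.4, 0.47 for PSBO1 and 0.44 for LHCA1. Without replicate 2 of bbx28-5 in shade they were 0.93, 0.74, 0.67, 0.56, 0.52, 0.84, 0.45 and 0.52 in the same order, all called. PSBY, PSBO2 and LHCA6 stayed called under total counts (0.82, 0.6 and 0.57) and under cyclic loess offsets (0.74, 0.43 and 0.77). The other 5 were called under neither: LHCA4 was at 0.5 and 0.12, LHCA3 at 0.4 and 0.09, LHCB1.4 at 0.42 and 0.23, PSBO1 at 0.18 and -0.13, and LHCA1 at 0.15 and -0.15 under total counts and under cyclic loess. The mean PSBO1 share of the PSBO reads, in which a single factor per library cancels, rose by less with shade in bbx28-5 than in Col-0. The difference of the shade effects, bbx28-5 minus Col-0, was -5.04 percentage points (adjusted p = 0.0129, exact permutation). That call ended without replicate 2 of Col-0 in shade (-4.82 points, adjusted p = 0.05, exact permutation).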

How the results depend on the processing

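Counts of called members moved with the scaling. With total counts, 6 members were higher and 20 lower with shade in bbx28-5, 7 higher and 3 lower between genotypes in shade, 4 lower between genotypes in white light, and 3 had a positive interaction. Cyclic loess offsets gave 9 higher with shade in Col-0, 5 higher and 5 lower between genotypes in shade, and 3 interactions. Length offsets gave 2 higher with shade in Col-0 (32.3% of all tested genes) and 13 interactions (9.52%), no filter gave 2 higher with shade in Col-0 (23.0%), TMMwsp gave 1 lower between genotypes in shade (16.7%) and 5 interactions (4.17%), and the DESeq2 test gave 15 interactions (8.73%). Fits of the 2 groups alone gave 3 higher with shade in Col-0 (35.2%), 8 higher between genotypes in shade (9.32%) and 21 lower in white light (13.6%). Differences between genotypes in shade reversed for LHCA1 under total counts (-0.03) and, under cyclic loess, for LHCA1 (-0.27), LHCB1.3 (-0.18), LHCB3 (-0.09), LHCB4.2 (-0.01), LHCB5 (-0.14), LHCA2 (-0.05), PSBW (-0.02), PSAF (-0.12), PSAL (-0.11), PSBO1 (-0.08) and PSBR (-0.09). Cyclic loess also reversed the shade change of LHCB1.3 in Col-0 (0.1) and the interactions of LHCA1 (-0.15) and PSBO1 (-0.13). The cause was not tested. Relative to counts outside the members and the RBCS genes, the log2 shade change of the Col-0 share was -0.14 for LHCA, -0.6 for PSA and -0.4 for PSB genes.

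Leaving out each library in turn gave 13 to 17 members higher and 11 to 18 lower with shade in bbx28-5, and 0 to 2 higher and 18 to 30 lower with shade in Col-0. Between genotypes it gave 10 to 32 higher and 0 to 2 lower in shade, and 1 higher and 1 to 15 lower in white light, with 3 to 27 positive interactions and 0 negative. The 10 came without replicate 1 or 3 of Col-0 in shade (15.4% and 14.9% of all tested genes). The 32 came without replicate 3 of bbx28-5 in shade (22.9%). The 15 and 27 came without replicate 2 of bbx28-5 in shade (12.7% and 15.6%). So did the 30 lower with shade in Col-0 (37.4%). The shares of all tested genes thus moved with the omissions, from 14.9 to 27.4% higher between genotypes in shade. They ran from 3.36 to 12.7% lower in white light and from 3.56 to 15.6% for positive interactions. The shade shift of the PSAD1 share ran from 4.68 to 6.9 points. Genotype differences ran from -0.387 to 1.83 points for the PSAD1 share, from -3.94 to -1.14 for PSAE1 and from 1.46 to 2.17 for PSAH1, and the PSBO1 shade shift ran from 2.85 to 4.17 points, its interaction from -6.21 to -3.57.

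With the replicate number as a block, 23 members were higher between genotypes in shade (19.3% of all tested genes) and 6 interactions were called (4.94%). The block ended 4 calls of single members: LHCB5 between genotypes in shade (0.43, adjusted p = 0.055, edgeR), LHCA1 between genotypes in shade (0.26, adjusted p = 0.0586, edgeR), and the interactions of LHCA1 (0.44, adjusted p = 0.0758) and PSBO1 (0.47, adjusted p = 0.061).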
